A study of Mus musculus with 30 samples.

Results

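The BBSome is an 8-subunit coat that carries membrane proteins, among them receptors of the primary cilium, out of and into that organelle, and loss of a subunit causes Bardet-Biedl syndrome. BBS1, BBS2, BBS4, BBS5, BBS7, BBS8, BBS9 and BBIP1 make up the complex, and ARL6 is the small GTPase that recruits it to membranes. Here 9 genes were described, namely Bbs1, Bbs2, Bbs4, Bbs5, Bbs7, Bbs9, Ttc8 (which encodes BBS8), Bbip1 and Arl6, out of the 55401 genes counted in each table. They were chosen by name as the parts of 1 complex, after Ttc8 had been seen to have a large negative fold change after loss of SRCAP. The values of Ttc8 in the time course of SRCAP loss are therefore a description and were not tested, and counts over that time course are over the other 8 genes.

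SRCAP is the ATPase that exchanges the histone H2A for the variant H2A.Z, and nuclear RNA was sequenced before and after its degradation in mouse embryonic stem (ES) cells. SYAT cells come from 1 clone of CGR8 ES cells in which both Srcap alleles carry YPet and the auxin-inducible degron AID, with the receptor OsTir1 from a lentivirus under the EF1a promoter, so that the auxin IAA removes SRCAP, and they were sorted for loss of YPet after IAA when the line was made. SYAT cells received IAA at 500 µM for 2, 4, 6 or 8 h, and control SYAT cells received the Tir1 inhibitor auxinole. The parental CGR8 cells, without the degron, received IAA for 4 h or no IAA. SYAT cells with a mitotic-degradation mCherry reporter were sorted in early (EG1) or late (LG1) G1 with or without 1 h of IAA. Lastly, SYAT cells with SRCAP-mCherry under doxycycline, as the wild-type protein (wtSRCAP) or with mutations in the ATPase domain (cdSRCAP), 1 clone of each, were induced for 24 h, sorted for mCherry and compared with or without 4 h of IAA, so that both wtSRCAP and cdSRCAP controls hold endogenous SRCAP and the induced protein. The wtSRCAP and cdSRCAP controls were left in auxinole, which the study names as the routine control condition of SYAT cells. Each of the 15 groups had 2 replicates, described as biological replicates, which makes 30 libraries in 4 count tables that were fitted separately.

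Each gene has an exon count, which is the main measure, and an intron count. Exon columns summed to 45617992 to 60214521 counts in CGR8, 17540823 to 22873893 in the SYAT time course, 19740778 to 26672402 in the sorted cells and 12236493 to 26369773 in wtSRCAP and cdSRCAP cells. Intron columns summed to 3902509 to 7287893 counts in CGR8 and 18652274 to 26851535 in the SYAT time course. They summed to 4520810 to 32872563 in the sorted cells, with LG1 below EG1, and 2006573 to 5398261 in wtSRCAP and cdSRCAP cells. The 9 ES cell markers checked (Pou5f1, Nanog and others) summed to 1727 to 4611 exon CPM (counts scaled to the size of the library) per library, and markers of endoderm, mesoderm, neural cells and fibroblasts to at most 46.8 per lineage. IAA acts on the SRCAP protein, so the Srcap count does not check the labels. The intron columns were not alike between libraries. Of the genes with a single exon, 51.9% to 52.2% of 1302 had intron counts in SYAT libraries and 46.0% to 46.2% of 1993 in EG1 libraries, against at most 0.100% in CGR8, LG1, wtSRCAP and cdSRCAP libraries, while Bbs4 had no intron count in any SYAT or EG1 library. What the intron columns of SYAT and EG1 hold besides intronic reads was not settled. CPM below are scaled by the TMM method. A gene was called at an adjusted p under 0.05 and an absolute log2 fold change over 0.5 in edgeR's quasi-likelihood test across all genes, with Benjamini-Hochberg adjustment.

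The start regions of the genes, 250 bases before to 50 bases after the annotated start, were matched in RefSeq for all 9 genes (GRCm38.p6). They were searched on both strands for 4 short motifs. These were GTTGCC, an arm of the X-box that RFX factors of ciliary genes bind, the NF-Y motif CCAAT, the ETS motif CCGGAAG, and GCGCATG, which NRF1 binds. GTTGCC was found once each in the windows of Bbs1, Bbs5 and Bbs7, and 12.5% of the 32851 promoter windows hold it. The windows of Ttc8 and of Bbs2, Bbs4, Bbs9, Bbip1 and Arl6 do not have these letters. CCAAT, which is in 37.4% of all windows, was found in Bbs1, Bbip1 and a start of Arl6. CCGGAAG, in 8.86%, was found in Bbs2 and Bbs4, and GCGCATG, in 3.91%, in none. The windows of the 3 genes with the most negative exon fold changes after 6 and 8 h of IAA (Ttc8, Bbs1 and Bbs5), of Bbs7, which also holds GTTGCC, and of Bbs2, whose values were the flattest, are given 5′ to 3′ in the direction of the gene, with GTTGCC in capitals.
Ttc8 (chr12:98920324-98920623, plus strand): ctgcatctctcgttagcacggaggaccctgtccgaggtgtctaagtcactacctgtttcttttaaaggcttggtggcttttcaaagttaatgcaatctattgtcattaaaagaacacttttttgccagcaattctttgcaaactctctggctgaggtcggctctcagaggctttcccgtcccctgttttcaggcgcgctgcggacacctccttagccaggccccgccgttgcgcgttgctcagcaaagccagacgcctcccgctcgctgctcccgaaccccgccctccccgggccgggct
Bbs1 (chr19:4906578-4906877, minus strand): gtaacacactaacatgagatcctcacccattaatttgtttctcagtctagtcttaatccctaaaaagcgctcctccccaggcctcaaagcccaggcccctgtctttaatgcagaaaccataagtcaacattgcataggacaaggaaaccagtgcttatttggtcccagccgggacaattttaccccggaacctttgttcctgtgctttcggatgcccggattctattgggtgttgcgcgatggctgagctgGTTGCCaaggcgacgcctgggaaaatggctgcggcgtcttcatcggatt
Bbs5 (chr2:69646921-69647220, plus strand): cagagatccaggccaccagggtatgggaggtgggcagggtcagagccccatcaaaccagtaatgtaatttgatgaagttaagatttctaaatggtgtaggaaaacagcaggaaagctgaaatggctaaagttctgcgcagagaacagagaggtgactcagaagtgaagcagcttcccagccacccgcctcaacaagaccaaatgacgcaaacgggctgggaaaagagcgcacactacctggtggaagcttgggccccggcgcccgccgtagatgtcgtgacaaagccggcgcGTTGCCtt
Bbs7 (chr3:36613340-36613639, minus strand): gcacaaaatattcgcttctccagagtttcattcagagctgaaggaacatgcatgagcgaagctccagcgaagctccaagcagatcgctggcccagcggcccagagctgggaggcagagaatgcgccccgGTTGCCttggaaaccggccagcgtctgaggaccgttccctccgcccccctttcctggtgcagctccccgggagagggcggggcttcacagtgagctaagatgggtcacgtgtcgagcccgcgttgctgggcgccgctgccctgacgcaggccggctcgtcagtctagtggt
Bbs2 (chr8:94098460-94098759, minus strand): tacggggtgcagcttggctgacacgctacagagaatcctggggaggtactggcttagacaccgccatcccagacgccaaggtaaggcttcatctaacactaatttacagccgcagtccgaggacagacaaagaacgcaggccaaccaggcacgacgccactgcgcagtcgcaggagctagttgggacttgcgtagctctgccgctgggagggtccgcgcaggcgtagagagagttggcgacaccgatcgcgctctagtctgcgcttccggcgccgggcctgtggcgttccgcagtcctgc
Counted from 1 at the annotated start, the motif begins at base 2 of the Bbs1 transcript and base 43 of the Bbs5 transcript, and 121 bases before the start of Bbs7.

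All 9 genes were expressed at low to moderate levels in control cells and all passed the filter on low counts in the exon columns of every table. Levels between genes were compared as exon CPM per kilobase of annotated exon. In SYAT controls Arl6 was the highest at 5.52 ± 0.484 CPM per kb (SD, n = 2), followed by Bbs2, a subunit of the BBSome core, at 3.59 ± 0.487, and Bbs5, which binds phosphoinositides, at 1.91 ± 0.0948. Ttc8, Bbs4 and Bbip1 came next at 1.47 ± 0.270, 1.32 ± 0.179 and 1.21 ± 0.290, and their libraries overlapped each other in that order, as did those of Bbip1 and Bbs9 at 0.965 ± 0.0576. Bbs1, the subunit that contacts ARL6, was at 0.698 ± 0.101 and Bbs7, another core subunit, was the lowest at 0.444 ± 0.0438. Arl6 and Bbs2 also held the first and second place in CGR8, EG1, LG1, wtSRCAP and cdSRCAP controls, although their libraries overlapped in wtSRCAP and cdSRCAP. Bbs7 was last in CGR8, wtSRCAP and cdSRCAP, and Bbs1 was last in EG1 and LG1. The annotated transcripts of the 9 genes were not told apart in these counts.

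Ttc8 (ENSMUSG00000021013.16, chr12:98920574-98983238, plus strand) encodes the subunit BBS8, built of tetratricopeptide repeats. Its exon values in SYAT cells were 6.28 and 4.83 CPM in the control libraries, 2.84 and 2.77 at 2 h, 2.59 and 2.18 at 4 h, 1.16 and 1.84 at 6 h and 1.57 and 1.15 at 8 h of IAA. Every IAA library was below both controls, and the 6 and 8 h libraries were below all 2 and 4 h libraries. The log2 fold changes against the control, given without a test, were -0.98 (SE 0.318), -1.22 (SE 0.321), -1.88 (SE 0.339) and -2.03 (SE 0.335) after 2, 4, 6 and 8 h. The intron counts of Ttc8 were 186 and 194 in the controls, 56 and 79 at 2 h, 48 and 67 at 4 h, 13 and 7 at 6 h and 29 and 31 at 8 h of IAA. The exon counts of the same libraries were 124 and 117, 52 and 65, 48 and 52, 20 and 30, and 32 and 28, so the intron column was the higher one in the controls and the lower one after 6 h. On the log2 scale these intron differences were -1.45, -1.72, -3.90 and -2.76, the 6 h value being the lowest of all 9 genes at any time in either column of the time course. In a bulk library fewer cells that express a gene and less RNA per cell cannot be told apart.

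None of the other 8 genes was called after IAA in the exon columns of SYAT cells by edgeR at any time. Over all 19205 genes tested, 0%, 0%, 0.0677% and 0.00521% were called after 2, 4, 6 and 8 h. At an unadjusted p under 0.05, 2, 3, 3 and 4 of the 8 genes were lower after 2, 4, 6 and 8 h and 0 were higher. Of all genes 2.55%, 6%, 8.21% and 8.44% were lower and 1.37%, 3.09%, 7.93% and 5.13% higher. The lower genes were Bbs1 and Bbs4 after 2 h, Bbs1, Bbs4 and Bbs5 after 4 and 6 h, and Bbs1, Bbs5, Bbs7 and Arl6 after 8 h. The median log2 fold change of the 8 genes was -0.21, -0.42, -0.70 and -0.62, against 0.00, 0.02, 0.01 and 0.03 over all genes. DESeq2, the tool of the study, called Bbs5 lower after 4 h and Bbs1 and Bbs5 lower after 6 and 8 h, where it called 0.859%, 4.01% and 2.29% of the genes to which it gave an adjusted p. With replicate added to the edgeR fit as a block, Bbs1, Bbs4 and Bbs5 were called after 6 h and 2 genes after 8 h. That fit called 4.29% and 3.3% of all genes at these times. Leaving out 1 library at a time, the log2 fold change of Bbs1 after 2 h ranged from -1.19 to -0.89. That of Bbs4 after 2 h ranged from -0.96 to -0.43. After 6 h the ranges were -2.13 to -1.12 for Bbs1 and -1.99 to -1.04 for Bbs5. After 8 h they were -1.70 to -0.97 for Bbs7 and -1.16 to -0.38 for Arl6. The numbers of genes called or lower at an unadjusted p moved in some of these fits.

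Bbs1 (ENSMUSG00000006464.9, chr19:4886878-4906628, minus strand) was below its control values at every time. Its exon values were 4.81 and 5.91 CPM in the control libraries, 2.40 and 2.77 at 2 h, 2.10 and 1.97 at 4 h, 1.22 and 2.46 at 6 h and 2.06 and 1.81 at 8 h of IAA. All 8 IAA libraries were below both controls, already after 2 h. The log2 fold changes were -1.05, -1.40, -1.55 and -1.47, with adjusted p = 1.00, 0.217, 0.0895 and 0.110 from edgeR. DESeq2 gave adjusted p = 0.0162 after 6 h and 0.0255 after 8 h.

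Bbs5 (ENSMUSG00000063145.10, chr2:69647171-69667571, plus strand) had its lower values from 4 h on. Its exon values were 4.5 and 4.83 CPM in the control libraries, 3.27 and 3.20 at 2 h, 1.78 and 1.30 at 4 h, 2.26 and 1.17 at 6 h and 1.47 and 1.77 at 8 h of IAA. All IAA libraries were below both controls, with those of 4, 6 and 8 h below those of 2 h. Its log2 fold changes were -0.53, -1.61, -1.44 and -1.52 (adjusted p = 1.00, 0.184, 0.107 and 0.108 from edgeR). DESeq2 gave adjusted p = 0.0326, 0.0306 and 0.0241 after 4, 6 and 8 h.

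Bbs4 (ENSMUSG00000025235.8, chr9:59321990-59353508, minus strand), a tetratricopeptide subunit also known at centriolar satellites, had exon values of 7.19 and 8.72 CPM in the control libraries, 4.09 and 5.93 at 2 h, 4.20 and 5.24 at 4 h, 3.95 and 3.87 at 6 h and 4.55 and 6.53 at 8 h of IAA. All IAA libraries were below both controls, and those of 6 h were the lowest. Its log2 fold changes were -0.66, -0.75, -1.03 and -0.52 (adjusted p = 1.00, 0.443, 0.139 and 0.454 from edgeR). Bbs7 (ENSMUSG00000037325.10, chr3:36573142-36613477, minus strand) had the lowest exon CPM of the 9 genes in the controls. Its exon values were 2.23 and 2.56 CPM in the control libraries, 2.51 and 1.84 at 2 h, 1.99 and 1.59 at 4 h, 2.09 and 0.737 at 6 h and 1.22 and 0.740 at 8 h of IAA. The 2 h libraries lay around the controls, the 6 h libraries stood apart from each other, and both 8 h libraries were below the controls. Its log2 fold changes were -0.15, -0.42, -0.75 and -1.29 (adjusted p = 0.279 from edgeR after 8 h). Arl6 (ENSMUSG00000022722.18, chr16:59612949-59639391, minus strand) had exon values of 12.3 and 10.9 CPM in the control libraries, 10.4 and 8.71 at 2 h, 10.2 and 7.17 at 4 h, 6.38 and 8.35 at 6 h and 8.86 and 5.22 at 8 h of IAA. All its treated libraries were below both controls, and the log2 fold changes were -0.28, -0.42, -0.65 and -0.72 (adjusted p = 0.318 from edgeR after 8 h).

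Bbs2 (ENSMUSG00000031755.6, chr8:94067954-94098928, minus strand) had control and treated libraries that overlapped at every time. Its exon values were 10.7 and 13.0 CPM in the control libraries, 10.7 and 14.8 at 2 h, 9.70 and 15.7 at 4 h, 11 and 12.2 at 6 h and 9.01 and 11.9 at 8 h of IAA. The log2 fold changes were 0.10, 0.10, -0.04 and -0.18, with 95% confidence intervals of -0.51 to 0.70 after 4 h and -0.79 to 0.42 after 8 h. Bbs9 (ENSMUSG00000035919.16, chr9:22475715-22888280, plus strand), a core subunit and the longest of the 9 genes, was at 5.77 and 6.28 CPM in the control libraries, 7.47 and 7.86 at 2 h, 5.93 and 5.11 at 4 h, 4.35 and 5.96 at 6 h and 4.36 and 4.89 at 8 h of IAA. Its log2 fold changes were 0.35, -0.13, -0.23 and -0.38, first above and then below 0. Bbip1 (ENSMUSG00000084957.3, chr19:53929861-53944627, minus strand), a small subunit, was at 6.23 and 4.42 CPM in the control libraries, 5.23 and 5.17 at 2 h, 4.47 and 3.90 at 4 h, 4.06 and 2.82 at 6 h and 5.29 and 4.36 at 8 h of IAA, with log2 fold changes of -0.03, -0.35, -0.62 and -0.14. The 8 h intervals were -0.91 to 0.15 for Bbs9 and -0.76 to 0.48 for Bbip1. Subunits of the same complex thus had values from -1.52 for Bbs5 to -0.14 for Bbip1 after 8 h on the log2 scale, leaving Ttc8 aside, but the differences between genes were not tested.

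**Figure D1:**
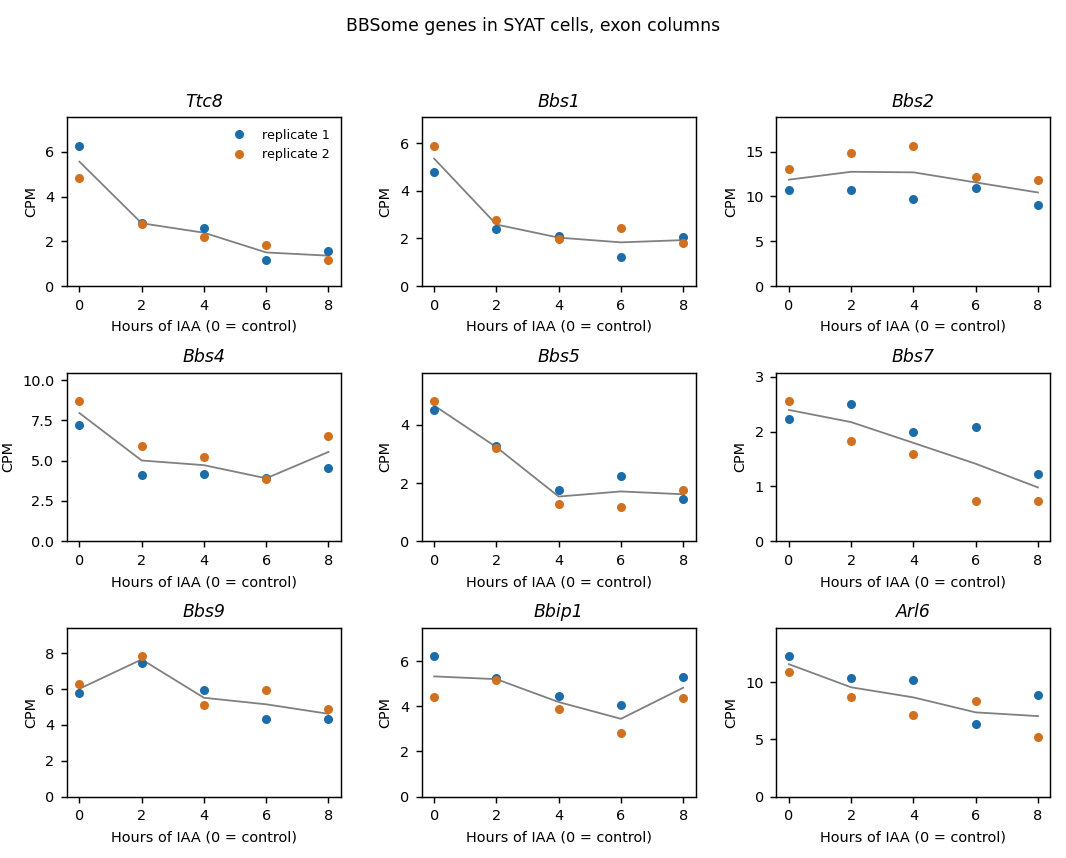
Exon CPM of the 9 genes in SYAT cells against hours of IAA, with 0 as the control, 1 point per library (blue replicate 1, orange replicate 2) and a grey line through the means; each panel has its own axis from 0. Ttc8, Bbs1, Bbs4, Bbs5 and Arl6 have all treated libraries below both controls, and Bbs2, Bbs7, Bbs9 and Bbip1 do not.

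The intron columns of the time course gave like values for the genes that could be fitted, with the limit that single-exon genes have counts in these columns too, so that they may not be a separate measurement. Of the 8 genes other than Ttc8, 7 were tested, since Bbs4 was at 0 in every SYAT intron column. None was called by edgeR, where 0%, 0%, 0.0136% and 0.00679% of 14719 genes were after 2, 4, 6 and 8 h. At an unadjusted p under 0.05, 3, 4, 5 and 4 were lower, against 3.29%, 5.87%, 7.98% and 7.85% of all genes. DESeq2 called Bbs1 and Bbs5 after 4 h, Bbs1, Bbs5 and Arl6 after 6 h, and these with Bbs7 after 8 h, all lower, where it called 1.82%, 3.83% and 3.32% of genes. Leaving out 1 library at a time, the log2 fold changes after 6 h ranged from -1.97 to -1.20 for Bbs1 and from -1.51 to -0.97 for Bbs5. For Arl6 they ranged from -2.39 to -1.69.

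Arl6 had a larger difference in the intron column than in the exon column. Its intron values were 8.06 and 9.0 CPM in the control libraries, 5.14 and 4.83 at 2 h, 4.77 and 4.45 at 4 h, 2.64 and 1.62 at 6 h and 3.19 and 2.80 at 8 h of IAA. All treated libraries were below both controls. On the log2 scale the changes were -0.78, -0.89, -2.0 and -1.51 (adjusted p = 0.885, 0.352, 0.107 and 0.125 from edgeR and 1.16e-05 from DESeq2 after 6 h). The difference between the columns was not tested.

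Bbs1 had intron values of 5.97 and 6.68 CPM in the control libraries, 2.67 and 3.01 at 2 h, 2.49 and 2.28 at 4 h, 1.62 and 2.76 at 6 h and 2.23 and 2.51 at 8 h of IAA. These gave log2 fold changes of -1.15, -1.40, -1.53 and -1.41 (adjusted p = 0.648, 0.221, 0.112 and 0.132 from edgeR). Every treated library of Bbs1 was below both controls, as in the exon column. Bbs5 introns were at 7.16 and 8.24 CPM in the control libraries, 4.77 and 4.41 at 2 h, 2.70 and 2.48 at 4 h, 3.93 and 2.70 at 6 h and 2.71 and 3.59 at 8 h of IAA, with log2 fold changes of -0.75, -1.57, -1.21 and -1.29 (adjusted p = 0.886, 0.218, 0.131 and 0.134). Bbs7 introns were at 3.13 and 3.36 CPM in the control libraries, 2.67 and 1.90 at 2 h, 1.86 and 1.93 at 4 h, 2.16 and 1.44 at 6 h and 1.06 and 1.15 at 8 h of IAA, with log2 fold changes of -0.51, -0.77, -0.85 and -1.55. The 8 h libraries of Bbs7 were the lowest of its course, and the adjusted p there was 0.132 from edgeR and 0.0327 from DESeq2. Bbs2 was again flat, at -0.02, 0.06, -0.10 and -0.14. In Bbs9 the replicates stood far apart, at 5.86 and 27.0 CPM after 8 h against 22.0 and 31.2 in the controls, and its log2 fold change of -0.69 had a 95% confidence interval of -2.29 to 0.91. Bbip1 was at 6.09 and 4.37 CPM after 6 h against 8.31 and 8.00 in the controls, and back at 8.08 and 7.46 after 8 h.

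**Figure D2:**
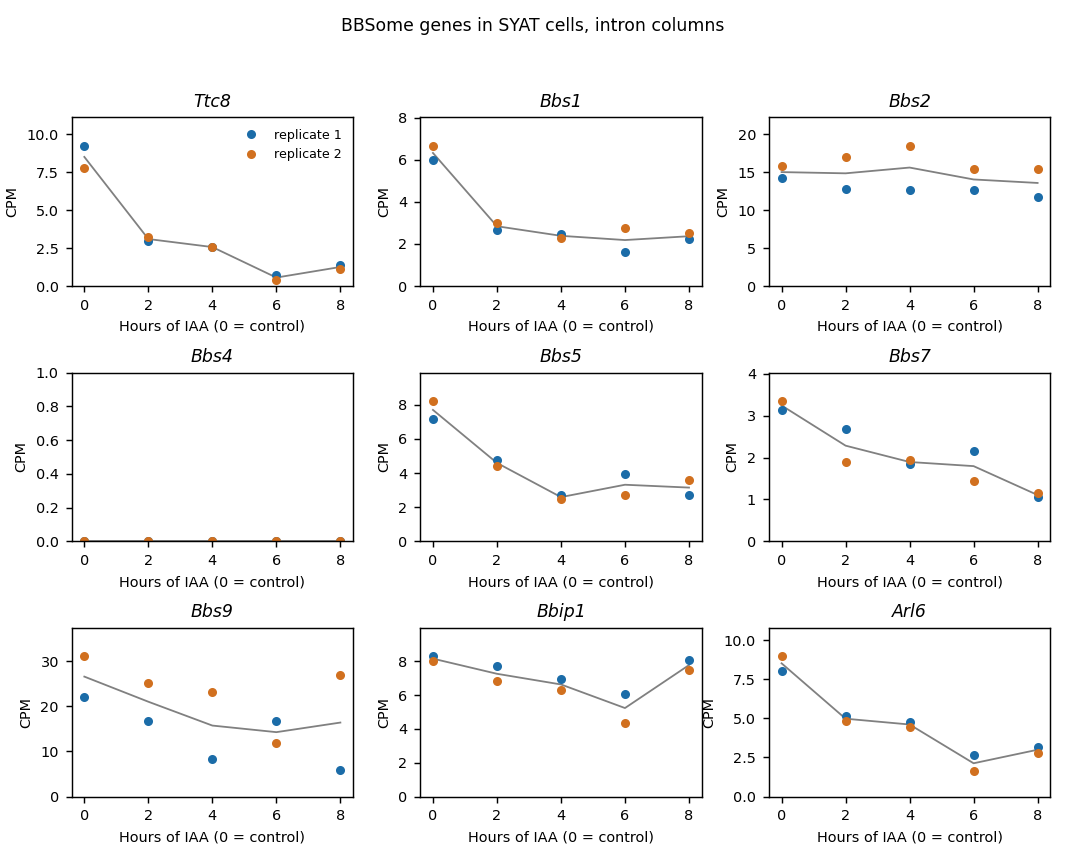
Intron-column CPM of the 9 genes in SYAT cells against hours of IAA, drawn as in the plot of exon values, with each axis from 0. Ttc8 and Arl6 have their lowest values after 6 h, the replicates of Bbs9 are far apart, and Bbs4 is at 0 throughout.

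CGR8 cells have no degron, so they show what IAA did without loss of SRCAP. They also lack OsTir1, and their controls are labelled untreated. The part of auxinole or OsTir1 in the SYAT comparisons is therefore not covered by them. None of the 9 genes was called in their exon columns, where 0.00988% of 20250 genes were. Ttc8 was at 3.39 and 4.04 CPM in the controls and 2.99 and 4.63 after 4 h of IAA, and the groups overlapped. Its log2 fold change was 0.04, with a 95% confidence interval of -0.65 to 0.73. The intervals were -0.76 to 0.39 for Bbs1 and -0.65 to 0.45 for Bbs5. Bbs9 was at 16.1 and 13.2 CPM in the controls and 10.8 and 10.0 after IAA, all treated libraries below the controls, and was the only one of the 9 under an unadjusted p of 0.05, where 4.12% of all genes were lower (log2 fold change -0.49, adjusted p = 0.540 from edgeR).

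In the CGR8 intron columns none of the 8 genes tested was called by edgeR, against 0.022% of 13634 genes, and 1, Bbs4, was lower at an unadjusted p under 0.05, as were 2.68% of all genes. Bbs4 had 37 and 13 intron counts in the controls and 0 in both IAA libraries, at least 12.4-fold lower than the mean of the controls, and at least 4.13-fold lower than the lower control, when 3 counts per library are taken for a count of 0 (adjusted p = 0.743 from edgeR). DESeq2 called Bbs4 (adjusted p = 0.0337), where it called 0.283% of genes. The controls themselves, 9.54 and 1.90 CPM, lay far apart, and the exon values of Bbs4, 6.57 and 7.0 in the controls and 6.50 and 8.78 after IAA, overlapped. Bbs9, with the most intron counts, was at 190.0 and 218 CPM in the controls and 209 and 190.4 after IAA, a log2 fold change of -0.03 with an interval of -0.36 to 0.30. Ttc8 introns were at 27.8 and 32.9 CPM in the controls and 31.7 and 23.2 after IAA (log2 fold change -0.15, interval -0.80 to 0.49). Arl6 was at 0 in the intron column of every CGR8 library.

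The wtSRCAP and cdSRCAP cells gave a separate set of 8 libraries. In 4 of them endogenous SRCAP was degraded by IAA while the induced protein was expressed. The genes were chosen with earlier results of these data known, so the values of Ttc8 there are not an independent check. None of the 9 genes was called in the exon columns, where 0.00523% of 19111 genes were called after IAA in wtSRCAP cells and 0% in cdSRCAP cells. When replicate was added to the edgeR fit as a block, Bbs1 was called lower in both lines (adjusted p = 0.0250 and 0.0391), where it called 3.2% and 1.81% of all genes. At an unadjusted p under 0.05, Bbs1 was lower in wtSRCAP cells, where 4.48% of all genes were lower, and Bbs1, Ttc8 and Bbs9 were lower in cdSRCAP cells, where 3.99% were. The median log2 fold change of the 9 genes was -0.56 in wtSRCAP and -0.61 in cdSRCAP cells, against -0.02 and 0.02 over all genes.

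Ttc8 was at 3.37 and 2.04 exon CPM in the wtSRCAP controls and 1.17 and 1.76 after IAA, and at 3.39 and 2.71 in the cdSRCAP controls and 0.680 and 1.26 after IAA. In both lines the treated libraries were below the controls. The log2 fold changes were -0.84 (SE 0.507, adjusted p = 0.760 from edgeR) with wtSRCAP and -1.63 (SE 0.515, adjusted p = 0.751) with cdSRCAP. The difference between these effects was -0.79, with a 95% confidence interval of -2.40 to 0.82.

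Bbs1 was at 9.0 and 6.27 exon CPM in the wtSRCAP controls and 4.10 and 2.39 after IAA, and at 9.56 and 6.58 in the cdSRCAP controls and 4.55 and 2.60 after IAA. Controls and treated libraries did not overlap in either line. Its log2 fold changes were -1.26 and -1.17 (adjusted p = 0.644 and 0.784 from edgeR), and their difference of 0.09 had an interval of -1.26 to 1.44. Bbs5 had few counts, 32 and 100 in the wtSRCAP controls and 7 and 50 after IAA, and its log2 fold changes of -1.26 and -0.41 had intervals of -2.69 to 0.17 and -1.82 to 0.99. Bbs2 was again near 0, at -0.20 and -0.00. Bbs4, lower in the time course at an unadjusted p, was at -0.24 and 0.07 here, with intervals of -1.03 to 0.55 and -0.72 to 0.85. Arl6 was at 6.22 and 10.5 CPM in the wtSRCAP controls, 3.32 and 7.98 after IAA, 7.46 and 11.7 in the cdSRCAP controls and 7.22 and 8.52 after IAA, with log2 fold changes of -0.54 and -0.29. Bbs7 had log2 fold changes of -1.0 and -0.79 and Bbip1 of -0.56 and -0.63, and all 4 intervals include 0.

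No exon difference between cdSRCAP and wtSRCAP cells was called among the 9 genes, be it in the controls (log2 differences from -0.53 to 0.42), after IAA (-0.62 to 0.45) or between the effects of IAA (-0.79 to 0.84). Over all genes 0%, 0.00523% and 0% were called in these comparisons. The intervals are wide, so this does not show that wtSRCAP and cdSRCAP gave like values.

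**Figure D3:**
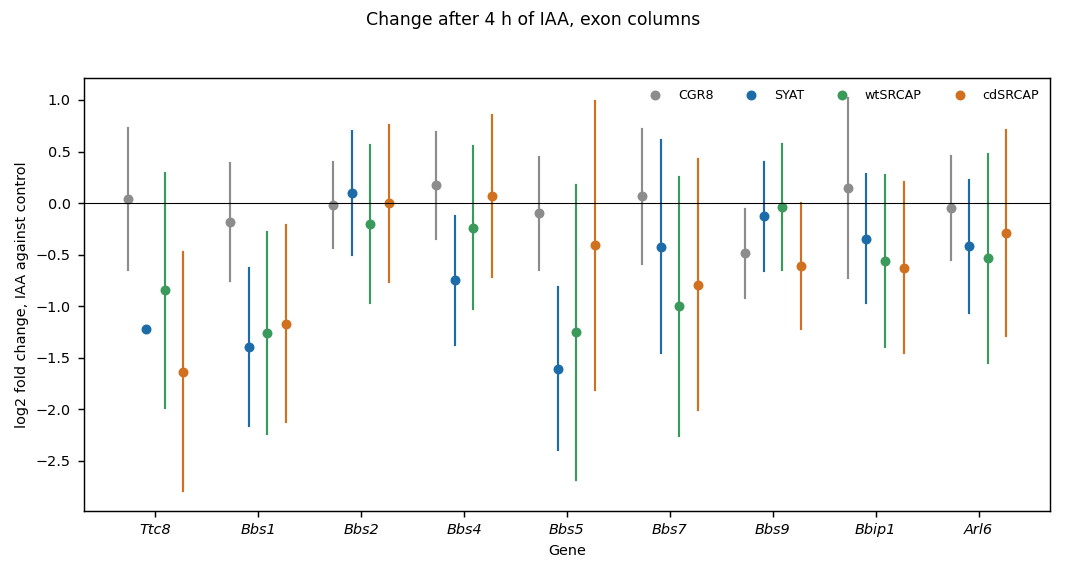
Log2 fold change of exon counts after 4 h of IAA against the control for each gene in CGR8 (grey), SYAT (blue), wtSRCAP (green) and cdSRCAP (orange) cells, with 95% confidence intervals as bars; Ttc8 in SYAT cells has none, as it was not tested. Bbs1 is at -1.40, -1.26 and -1.17 in SYAT, wtSRCAP and cdSRCAP cells and at -0.19 in CGR8 cells.

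In the intron columns of wtSRCAP and cdSRCAP cells single-exon genes have almost no counts, and 8 of the 9 genes were tested in them. None was called by edgeR in either line, where 0.299% and 0.236% of 12702 genes were called after IAA. At an unadjusted p under 0.05, Bbs5, Bbs7 and Bbs9 were lower and Bbs4 was higher in wtSRCAP cells, and Bbs1, Bbs5, Bbs9 and Ttc8 were lower in cdSRCAP cells. In the 2 lines 6.61% and 7.49% of all genes were lower and 5.76% and 3.78% were higher. DESeq2 called Bbs9 lower in wtSRCAP cells and Bbs5 and Bbs9 lower in cdSRCAP cells, where it called 2.11% and 1.5% of genes. In edgeR a replicate block gave calls for the same genes in each line, where it called 2.3% and 2.52% of all genes. The median log2 fold change of the 8 genes was -0.93 and -1.16, against 0.01 and -0.00 over all genes.

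Bbs9, whose introns span most of its 412566 bases, gave the most precise of these values. It was at 184 and 231 intron CPM in the wtSRCAP controls and 112 and 105 after IAA, and at 212 and 243 in the cdSRCAP controls and 116 and 116 after IAA. All 4 treated libraries were below all 4 controls. The log2 fold changes were -0.94 (SE 0.164) and -0.97 (SE 0.162), just above the threshold of 0.05 in edgeR with adjusted p = 0.0595 and 0.0531, and adjusted p = 0.00143 and 0.00148 from DESeq2. Their difference was -0.03, with an interval of -0.55 to 0.48. In the exon columns the values of Bbs9 were -0.04 and -0.61.

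Bbs5 introns were at 23.0 and 15.6 CPM in the wtSRCAP controls, 10.1 and 3.10 after IAA, 21.7 and 13.5 in the cdSRCAP controls and 3.43 and 3.62 after IAA. Treated libraries were below the controls in both lines, with log2 fold changes of -1.64 and -2.30 (adjusted p = 0.270 and 0.150 from edgeR, and 0.18 and 0.0279 from DESeq2). Bbs7 was at 45 and 23 counts in the wtSRCAP controls and 4 and 1 after IAA, and its log2 fold changes were -3.25 in wtSRCAP cells (-5.12 to -2.11 when 1 library is left out) and -1.71 in cdSRCAP cells. Those of Bbs1 were -0.94 and -2.02, on 6 to 37 counts a library. Ttc8 introns were at 15.4 and 18.9 CPM in the wtSRCAP controls, 7.43 and 10.3 after IAA, 20.7 and 20.2 in the cdSRCAP controls and 11.8 and 4.38 after IAA, which gave log2 fold changes of -0.93 and -1.35 (adjusted p = 0.454 and 0.304 from edgeR).

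Bbs4 and Bbs2 did not have lower intron values in wtSRCAP cells. Bbs4 was at 8.42 and 4.85 CPM in the wtSRCAP controls and 29.7 and 9.54 after IAA, and at 20.9 and 9.32 in the cdSRCAP controls and 9.56 and 6.28 after IAA. Leaving out 1 library, its log2 fold change of 1.52 in wtSRCAP cells ranged from 0.52 to 2.15. The difference between its effects, -2.46 on the log2 scale, did not pass the test (adjusted p = 1.00 from edgeR). Bbs2 had log2 fold changes of 0.50 and -0.10, and Bbip1 of -0.87 and 0.13, with an interval of -1.01 to 1.26 for the latter. Arl6 had intron counts in 2 of the 8 libraries only, 37 in a wtSRCAP control and 1 after IAA, and was not tested. None of the intron differences between cdSRCAP and wtSRCAP cells was called among the 8 genes, in the controls, after IAA or between the effects, where 0.102%, 0.0157% and 0% of all genes were.

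**Figure D4:**
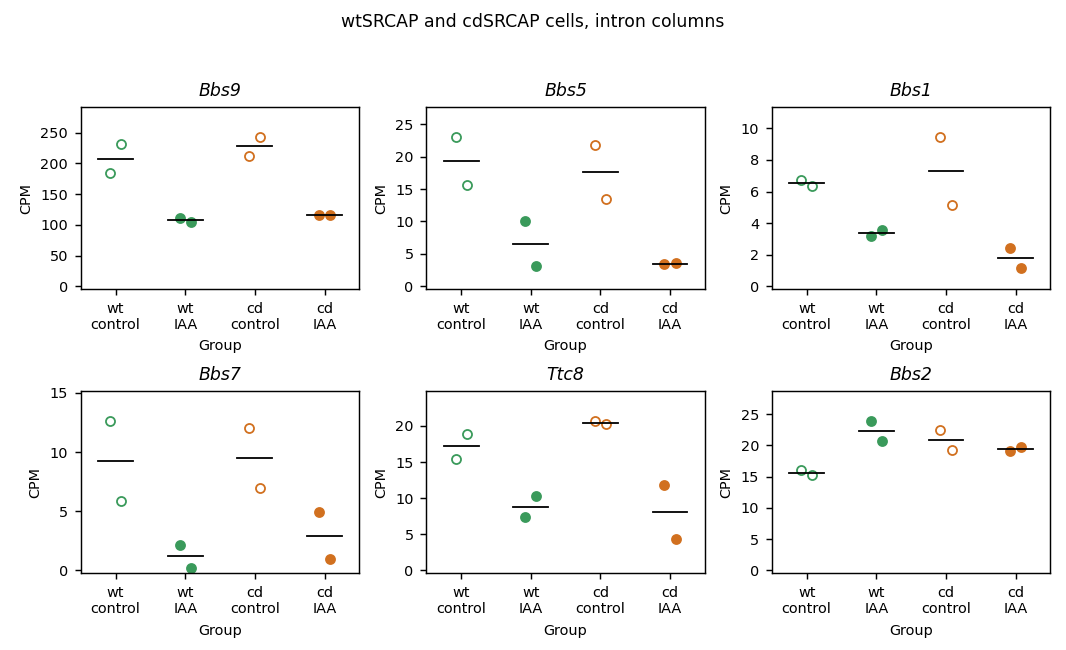
Intron-column CPM of 6 genes (Bbs9, Bbs5, Bbs1, Bbs7, Ttc8 and Bbs2) in wtSRCAP (green) and cdSRCAP (orange) cells, 1 point per library, open for controls and filled after 4 h of IAA, with black lines at the means and each axis reaching down to 0. Bbs9, Bbs5, Bbs1, Bbs7 and Ttc8 have all treated libraries below the controls of the same line, and Bbs2 does not.

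In the sorted cells, where loss of SRCAP for 1 h fell in mitosis and early G1 (EG1) or in G1 (LG1), no exon value of the 9 genes had an unadjusted p under 0.05. In EG1 0% and in LG1 0% of 21020 genes were called, and 1.03% and 0.733% were lower at an unadjusted p under 0.05. Log2 fold changes ranged from -0.49 to 0.12 in EG1 and from -0.39 to 0.32 in LG1. Ttc8 was at 4.00 and 4.03 CPM in the EG1 controls and 2.69 and 4.37 after IAA, and at 3.72 and 3.46 in the LG1 controls and 3.53 and 4.36 after IAA, so the groups overlapped. The intervals of its log2 fold change were -0.82 to 0.45 in EG1 and -0.51 to 0.78 in LG1. The lowest value was that of Bbip1 in EG1, 8.69 and 6.48 CPM in the controls and 5.75 and 5.09 after IAA (-0.49, adjusted p = 1.00 from edgeR).

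Between the control cells of EG1 and LG1 the exon levels of the 9 genes differed by -0.10 to 0.23 on the log2 scale, none of them called (0% of all genes were), and the differences between the effects of IAA ranged from -0.55 to 0.43 (0% of all genes were called). Bbs9 was at 10.9 and 9.32 CPM in the EG1 controls and 8.63 and 8.56 after IAA, and at 10.8 and 8.66 in the LG1 controls and 13.2 and 11 after IAA. It was thus lower in EG1 and higher in LG1, but the difference of -0.55 did not pass the test (interval -1.16 to 0.06, adjusted p = 1.00 from edgeR).

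In the intron columns, 0.00573% of genes in EG1 and 0% in LG1 were called, and none of the 9. At an unadjusted p under 0.05, 1.89% and 2.7% of all genes were lower, and of the 9 these were Bbs9 in EG1, and Bbs1 and Arl6 in LG1. Bbs9 introns were at 61.1 and 37.5 CPM in the EG1 controls and 25.7 and 25.3 after IAA (-0.95, adjusted p = 1.00 from edgeR). In LG1 they were at 135 and 140.3 in the controls and 184 and 98.1 after IAA, with the treated libraries on both sides of the controls. Arl6 had 42 and 25 intron counts in the LG1 controls and 13 and 0 after IAA, and Bbs1 had 29 and 20 in the controls and 14 and 13 after IAA. EG1 and LG1 intron values were not compared with each other, because single-exon genes have counts in the EG1 columns and nearly none in the LG1 columns.

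Other genes of the pathway were taken as lists. None of their genes was called in the exon columns of any comparison by edgeR, where at most 0.0677% of all genes were. After 6 h in SYAT cells the 8 BBSome genes other than Ttc8 had a median log2 fold change of -0.70 and all 8 were below 0, against a median of 0.01 with 49.1% below 0 over all genes. The 8 other Bardet-Biedl syndrome genes tested had a median of -0.45, and all 8 were below 0. At an unadjusted p under 0.05, 3 were lower and 0 higher, where 8.21% of all genes were lower and 7.93% higher. The largest differences were those of Sdccag8, a centrosomal protein gene (-0.96, SE 0.293, adjusted p = 0.167), and Cep290, a gene of the transition zone at the base of the cilium (-0.80, adjusted p = 0.18). Over wtSRCAP and cdSRCAP cells that list had medians of -0.43 and -0.50, and 0.12 in CGR8 cells. In the intron columns Sdccag8 was the only gene of the 5 lists called after IAA, and it was lower in both wtSRCAP and cdSRCAP cells. Of all 12702 genes tested there, 0.299% and 0.236% were called in these 2 lines. Its intron values were 141 and 158 CPM in the wtSRCAP controls, 55.8 and 55.6 after IAA, 162 and 158 in the cdSRCAP controls and 66.7 and 56.7 after IAA. These gave log2 fold changes of -1.43 (SE 0.166, adjusted p = 0.0275 from edgeR) and -1.38 (SE 0.162, adjusted p = 0.0202), against 0.18 in CGR8 cells (adjusted p = 0.936).

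The 11 chaperonin genes had a median of 0.12 after 6 h, with 2 lower and 3 higher at an unadjusted p under 0.05. For this and the next lists, 8.21% of all genes were lower and 7.93% higher at that p. Bbs10 and Mkks, which encode chaperonin-like proteins for BBSome assembly, were at -0.85 and -0.69 (adjusted p = 0.268 and 0.207 from edgeR). The 9 regulators and partners had a median of -0.03, with 2 lower and 1 higher. Lztfl1, whose product limits entry of the BBSome into the cilium, was at -1.09 (SE 0.282, adjusted p = 0.117) and Rab8a, a GTPase of ciliary membrane traffic, at -0.78 (adjusted p = 0.102). Of the 6 cargo receptor genes only 2 passed the filter, Smo, the Hedgehog transducer, at 0.18 and Gpr161 at -0.50. The 8 transcription factor genes (Rfx1 to Rfx7 and Foxj1) had a median of 0.34, with 0 lower and 0 higher at an unadjusted p under 0.05, and Rfx6 (0.67, SE 0.609) and Rfx2 (0.52, SE 0.428) had the largest differences.

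**Figure D5:**
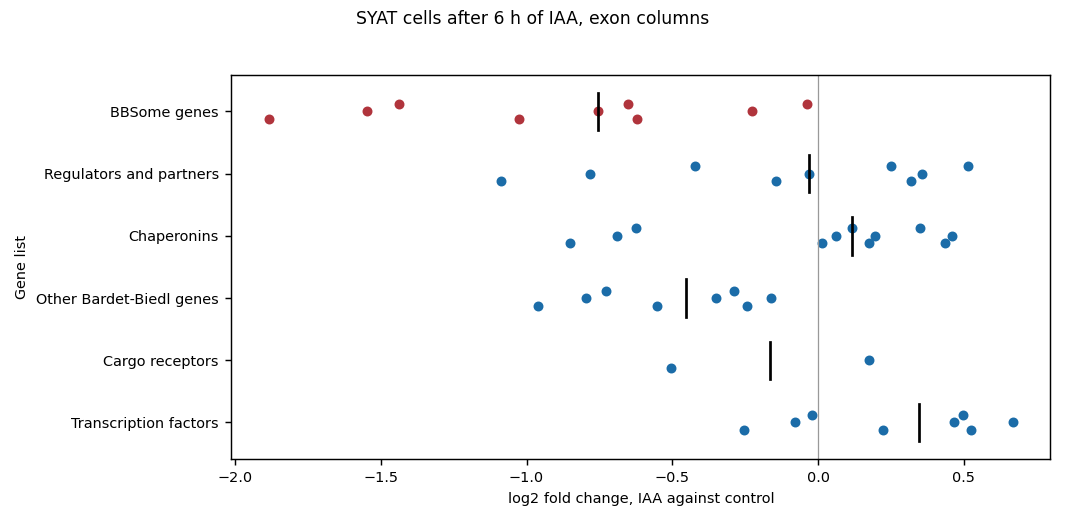
Log2 fold change of exon counts after 6 h of IAA in SYAT cells, 1 point per gene tested, for the BBSome genes (red) and the 5 other lists (blue), with a black bar at each median; the vertical spread within a list carries no value. The bar of the BBSome genes includes Ttc8, which was not tested; without it their median is -0.70, and the transcription factors have one of 0.34.

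Annotated genes that overlap or adjoin the 9 were examined because the strand setting of the counting is not stated in the sources used here. Shoc2 starts 321 bases from Bbip1 on the other strand and overlaps it. Its exon log2 fold change was 0.27 after 4 h and -0.00 after 6 h in SYAT cells, where Bbip1 was at -0.35 and -0.62. Adpgk overlaps Bbs4 on the other strand and was at 0.28, 0.49 and 0.32 after 4, 6 and 8 h, where Bbs4 was at -0.75, -1.03 and -0.52. If reads were counted without regard to strand, those of such pairs cannot be told apart. No gene of this kind adjoins Ttc8, Bbs2, Bbs5 or Bbs7, and the small RNA, pseudogene and noncoding neighbours of Bbs1, Bbs9 and Arl6 were too low to be tested.

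The genes most like Ttc8 over the 10 SYAT exon libraries, by Pearson correlation of log2 CPM among 19205 genes, were Taco1 (r = 0.974), Dpp9 (0.969), Ubl7 (0.969), Ppih (0.962) and 5730409E04Rik (0.961). These r share the 10 libraries and the time after IAA and are descriptions only. After 8 h the log2 fold changes of Taco1 and 5730409E04Rik were -1.25 and -1.52, against -0.29 for Dpp9 and -0.17 for Ppih, so a like course did not mean a like size. Among the BBSome genes, Bbs1 came closest at r = 0.907 (rank 131), followed by Arl6 at 0.865 (rank 371) and Bbs5 at 0.765 (rank 1110), while Bbs2 was at 0.110. In the exon libraries of CGR8, of the sorted cells, and of wtSRCAP with cdSRCAP cells, Taco1 was at -0.773, 0.733 and 0.188. Bbs1 was at 0.106, 0.418 and 0.697 there, and Arl6 at 0.0675, 0.195 and 0.289.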

How the data were processed

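Nuclear RNA-seq counts of 30 libraries were used. The authors deposited raw read counts per gene, exon and intron columns side by side, from 75-nt paired-end reads of directional libraries aligned with STAR to mm10 and counted with featureCounts on GENCODE annotation; SAMtools 1.10 and Picard are also named in the submitters' processing notes. The strand setting of the counting is not given in the sources used here. Deposited tables of the authors' own fold changes and p-values were not used. Genes whose count passed filterByExpr were fitted with edgeR 4.0.16 (R 4.3.3, TMM, quasi-likelihood F test, 1 fit per table and column, no replicate block), which was first checked on artificial counts with known changes; DESeq2 1.42.0, RLE scaling, no filter, a replicate block, fits of only the groups compared and leave-one-out fits were alternatives. Confidence intervals (95%) come from the edgeR fit and its total degrees of freedom, the residual ones plus those borrowed across genes. CPM per kb divide by the union of annotated exons in a GENCODE annotation of the same build. The likeness to Ttc8 used log2(CPM + 0.5). The genes, lists and tests were chosen with earlier results of these data known. Genes outside the complex were named as the 2 with the largest absolute log2 fold change of each list after 6 h in SYAT exons. EG1 and LG1 intron columns were not compared.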

Additional observations from a re-analysis of the deposited data

Results flagged for a closer look

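Some genes had every treated library on one side of the controls in one kind of cell and on the opposite side in another. These directions come from separate tables, and the differences between them were not tested. The share of all genes with such a separation was not computed, and with 2 libraries a group it can arise by chance. In CGR8 introns 1 of the 9 genes had all treated libraries below the controls and 2 had them above. Intron counts there were low, 21 to 101 a library for Bbs1, 11 to 173 for Bbip1 and 0 to 37 for Bbs4. Bbs1 introns had a log2 fold change of 0.99 in CGR8 cells, with both treated libraries above the controls, against -1.40 in SYAT, -0.94 in wtSRCAP and -2.02 in cdSRCAP cells after 4 h of IAA. Bbip1 introns were at 1.05 in CGR8 cells and at -0.30 in SYAT and -0.87 in wtSRCAP cells. Bbs4 introns were at least 12.4-fold lower than the control mean after IAA in CGR8 cells and at least 4.13-fold lower than the lower control, taking 3 counts per library for a count of 0. In wtSRCAP cells they had a log2 fold change of 1.52, which ranged from 0.52 to 2.15 when 1 library was left out. In the sorted cells Bbs9 exons were at -0.24 in EG1 and 0.32 in LG1, within 1 table, and there the difference was tested and did not pass (adjusted p = 1.00 from edgeR).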

How the results depend on the processing

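Each group had 2 libraries, and outside CGR8 most exon counts of these genes were under 200 a library, which limits the precision of every fold change. The numbers of the 9 genes called (8 in the SYAT time course) depended on the tool. With DESeq2 they were 1, 2 and 2 in SYAT exons after 4, 6 and 8 h, 2, 3 and 4 in SYAT introns at these times, 1 in wtSRCAP introns, 2 in cdSRCAP introns and 1 in CGR8 introns, all of them 0 with edgeR. Without a filter on low counts they were 1, 2 and 2 in SYAT exons, 1 in SYAT introns after 6 h (Arl6), 2 in wtSRCAP introns (Bbs7 and Bbs9), 2 in cdSRCAP introns and 1 in CGR8 introns; of all genes, 0.245%, 2.47%, 1.25%, 0.343%, 2.34%, 1.72% and 0.725% were called in that order. A fit of only the cdSRCAP groups called 1 in introns (Bbs9) and 0.648% of all genes. The cause of these differences was not tested. RLE scaling moved no count.

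The replicate numbers in the labels do not say what they share. Correlations of deviations from the group means between same-numbered libraries were 0.0736 and 0.0596 in CGR8. They ran from -0.0359 to 0.589 in SYAT exons, 0.372 to 0.586 in the sorted exons and 0.141 to 0.638 in the sorted introns. In wtSRCAP and cdSRCAP cells they were 0.259 to 0.376 in exons and 0.0759 to 0.296 in introns. Same-numbered libraries thus deviate together in the sorted table and the wtSRCAP and cdSRCAP exons. In SYAT exons, pairs of groups without the 6 h one had r of 0.267 to 0.589, and pairs with it -0.0359 to 0.0623. With a replicate block 3 genes (Bbs1, Bbs4 and Bbs5) were called in SYAT exons after 6 h, with 5 lower at an unadjusted p, 2 after 8 h (4.29% and 3.3% of all genes called), 1 in wtSRCAP and 1 in cdSRCAP exons (Bbs1 in both), 1 in wtSRCAP introns (Bbs9) and 2 in cdSRCAP introns (Bbs5 and Bbs9), with the shares of all genes given beside those results. It changed no other of these counts.

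Libraries were also left out 1 at a time, which leaves 1 library in a group. The number called then moved in SYAT exons and introns after 6 h and in CGR8 introns. So did the number lower at an unadjusted p in SYAT exons. The share of all genes called in these fits was not computed, so only fold changes are given for them. Of the 54 single-gene fold changes recomputed in this way 0 changed sign and 8 moved by over 1.5 times, 7 of them intron values of CGR8, wtSRCAP or cdSRCAP cells and 1 the LG1 intron value of Arl6. A group left with 1 library is assumed to vary like the other groups. Subtracting the exon from the intron column in SYAT cells called none of the genes other than Ttc8, and gave no usable fold for Ttc8 after 6 h, where both differences are below 0. No value named in the report changed its sign in a called result under any alternative run.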
